A study of Rattus norvegicus with 12 samples.

Results

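Fatty acid oxidation genes are the 34 genes chosen by name for breaking down fatty acids in mitochondria and peroxisomes, for taking up and activating them, for passing on their electrons and for controlling these steps. The members were taken by symbol from a joint table of 24660 genes. A row was found for 33, Cd36 was not analysed here, and 32 members passed the filter on low counts. The cells were NRK-52E, a line of rat kidney tubular epithelium labelled wild type, sequenced as total RNA in 12 libraries, 3 for each of 4 groups. Control cells carry no treatment in the labels. The TGF-beta1 group was exposed to that cytokine, a driver of kidney fibrosis, at 10 µg/ml for 24 h per the labels, where ng/ml doses are usual, so that the unit is in doubt. The remaining libraries, here called 2D-EV and 3D-EV, came from cells given the same cytokine followed by 48 h with extracellular vesicles at 500000000 particles/ml, made by a conventional method (2D-EVs) or by a more productive one (3D-EVs). All groups other than control thus carried TGF-beta1. The cells that released the vesicles, the presence of TGF-beta1 during the vesicle step and the harvest times of control and TGF-beta1 cells were not stated in the labels, so vesicles and time cannot be told apart. Nothing in the labels says that the libraries of a group came from separate cultures, and the p-values then measure only the spread between libraries, which may be technical.

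Proximal tubule cells of the kidney draw most of their energy from fatty acids. A fatty acid is first joined to coenzyme A by an acyl-CoA synthetase, carried into the mitochondrion by the carnitine shuttle, and then shortened in repeated rounds of dehydrogenation, hydration, dehydrogenation and cleavage. Unsaturated chains need extra enzymes that move or reduce their double bonds, and very long or branched chains are shortened in peroxisomes. PPAR receptors, nuclear receptors that bind fatty acids, switch many of these genes on, and lower expression of the pathway is a known feature of fibrotic tubules.

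Library totals ranged from 32888125 to 39754319 counts, and levels are given as CPM, the usual scaling of counts by library size, here after TMM factors. For a gene without counts, 3 counts correspond to 0.0764 to 0.0916 CPM, a limit that covers counting error only. The cytokine response was present, since Ccn2, Fn1 and Col1a1, matrix-related genes that TGF-beta is known to induce, rose by 0.52, 0.68 and 1.00 on the log2 scale (adjusted p = 3.36e-09, 5.85e-07 and 2.25e-06). Of 17 tubular markers with a row, Krt8 stood at 1007 to 1252 CPM and Ggt1 at 159 to 320.1 CPM, while the defining markers Epcam, Pax2 and Hnf4a held 0 counts in every library and Krt18, Cdh16, Pax8, Slc34a1 and Slc5a2 stayed under 1 CPM. The 17 markers summed to 1230 to 1260 CPM in control, 1542 to 1605 in TGF-beta1, 1521 to 1556 in 2D-EV and 1507 to 1562 in 3D-EV cells. This sum came mostly from Krt8 and Ggt1. Of the 11 markers tested in TGF-beta1 against control cells, 2 rose and 2 fell (36.4%, against 22.0% of all tested genes). Their median log2 fold change was -0.26, with 6 negative and 5 positive. Adipocyte markers summed to at most 0.285 CPM. Of 8 immune markers, 5, among them Ptprc, held 0 counts in every library, and the summed level of 181 to 196 CPM in control, 247 to 254 in TGF-beta1, 221 to 234 in 2D-EV and 247 to 249.7 in 3D-EV cells came almost wholly from Cd14. The summed level of 7 endothelial markers was 12.4 to 13.6 CPM in control and 15.4 to 16.1 in TGF-beta1 cells. It was 15.8 to 16.9 CPM in 2D-EV and 15.2 to 17.5 CPM in 3D-EV cells. This level came mostly from Egfl7 (9.78 to 14.7 CPM) and Tek (1.41 to 2.30 CPM). Pecam1, Cdh5, Kdr and Vwf stayed under 1 CPM, with Emcn at 0. The 10 fibroblast and pericyte markers summed to 782 to 835, 762 to 787, 767 to 784 and 789 to 833 CPM in the same order. Over the 12 libraries Mfap5 stood at 529 to 598 CPM, Col14a1 at 121 to 206 and Postn at 37.1 to 70.2 CPM. Pdgfrb stood at 18.0 to 24.7 and Cspg4 at 2.88 to 4.65 CPM, while Pdgfra, Dcn, Lum, Dpt and Rgs5 stayed under 1 CPM. The part of these markers in the results below was not tested. In bulk RNA, fewer cells of a type and less RNA per cell cannot be told apart.

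**Figure D1:**
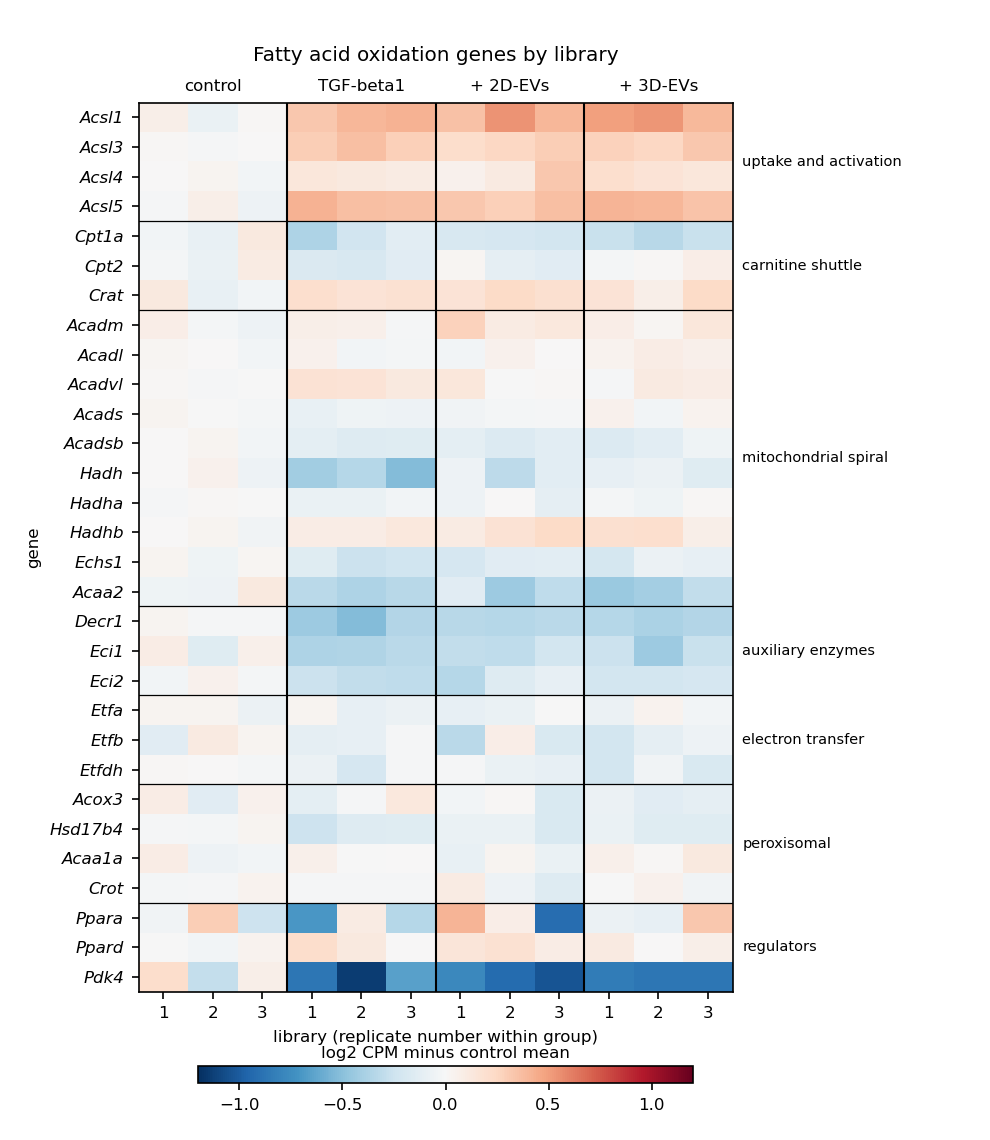
Log2 CPM of 30 members in each of the 12 libraries, minus the mean of the 3 control libraries of that gene (colour, from -1.2 to 1.2); rows are ordered by role and the other 2 tested members, Fabp3 and Ehhadh, under 1 CPM on average, are left out. Acsl1, Acsl3 and Acsl5 are above, and Decr1, Eci1, Eci2, Cpt1a and Pdk4 below, the control mean in all 9 libraries given TGF-beta1.

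The comparison of TGF-beta1 with control cells asked which genes of the pathway the cytokine changed. Among the genes that activate fatty acids, Acsl1, Acsl3 and Acsl5 rose, while Cpt1a of the carnitine entry step, 4 of 10 genes of the mitochondrial spiral, all 3 for unsaturated chains and Pdk4 fell. Crat of the carnitine shuttle and Acadvl of the spiral rose, and no test compared the steps. Of 32 tested members, 5 rose, 11 fell and 16 did not pass, against 22.0% of all 14184 tested genes called in either direction (11.8% rose and 10.2% fell). The median log2 fold change was -0.05 over the members and close to 0 (-0.005) over all tested genes. The libraries of the 2 groups did not overlap for 20 members, against 38.0% of all genes. The changes were small: of the genes that passed, Acadsb fell by 9.31% and Pdk4 by 45.9%, the smallest and the largest change relative to control.

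Promoters are shown for the 4 members with the smallest p in this comparison that have an entry in the RefSeq promoter table (build GRCr8), as genes of which Acsl5, Acsl3 and Acsl1 rose and Pdk4 fell; Decr1 had no entry. Each run spans 250 bases before to 50 after the annotated start, 5′ to 3′, and capitals mark exact matches on either strand to the motifs searched.
Acsl5, chr1:264294601-264294900, plus strand: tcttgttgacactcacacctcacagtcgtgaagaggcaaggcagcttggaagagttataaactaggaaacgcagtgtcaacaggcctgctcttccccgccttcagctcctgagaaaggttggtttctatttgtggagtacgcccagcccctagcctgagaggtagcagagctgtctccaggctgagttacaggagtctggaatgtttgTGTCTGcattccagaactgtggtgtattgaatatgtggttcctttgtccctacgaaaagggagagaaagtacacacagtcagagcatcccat
Acsl3, chr9:87563351-87563650, plus strand: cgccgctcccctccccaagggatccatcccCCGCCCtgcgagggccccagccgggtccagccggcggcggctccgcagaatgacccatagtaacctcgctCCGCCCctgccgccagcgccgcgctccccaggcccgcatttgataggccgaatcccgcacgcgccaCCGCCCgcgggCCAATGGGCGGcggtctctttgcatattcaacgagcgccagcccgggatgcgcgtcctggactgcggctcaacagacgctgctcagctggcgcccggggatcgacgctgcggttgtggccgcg
Acsl1, chr16:52532343-52532642, minus strand: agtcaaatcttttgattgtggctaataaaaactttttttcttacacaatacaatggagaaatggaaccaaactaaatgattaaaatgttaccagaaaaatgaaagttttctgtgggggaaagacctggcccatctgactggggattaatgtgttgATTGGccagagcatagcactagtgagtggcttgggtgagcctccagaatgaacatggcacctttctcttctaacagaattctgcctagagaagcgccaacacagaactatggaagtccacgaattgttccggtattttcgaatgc
Pdk4, chr4:34568280-34568579, minus strand: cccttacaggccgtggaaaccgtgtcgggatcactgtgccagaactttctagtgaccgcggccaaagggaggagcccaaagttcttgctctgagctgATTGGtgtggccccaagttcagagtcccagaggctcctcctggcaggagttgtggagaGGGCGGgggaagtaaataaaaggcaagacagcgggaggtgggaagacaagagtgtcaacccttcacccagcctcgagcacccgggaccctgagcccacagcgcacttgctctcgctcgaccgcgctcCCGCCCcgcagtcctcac
The motifs were AGGTCA, the core element of nuclear receptors, a direct repeat of it spaced by 1 base as bound by PPAR dimers, TCAAGGTCA of the ERR receptors, the SMAD box CAGACA, the NRF1 palindrome, CCAAT and the GC box GGGCGG. The first motif lies inside the second and the third, so a match to a longer one is also a match to the core. The capitals are a SMAD box in Acsl5, a CCAAT match and 4 GC boxes in Acsl3, a CCAAT match in Acsl1, and a CCAAT match and 2 GC boxes in Pdk4. A promoter was matched for 30 of 34 members. AGGTCA was present in 6 of these 30 promoters, among them 4 of 9 genes that fell and 1 of 5 that rose, against 11.9% of 9715 promoters of tested genes and 15.7% of all 27457. The direct repeat and the ERR motif matched 0 of 30 member promoters, against 0.0309% and 0.247% of tested genes. The GC box was present in 22 of 30, in 8 of 9 that fell and 2 of 5 that rose, against 62.4% of tested genes. CAGACA was present in 7 of 30, against 16.1%, CCAAT in 11 of 30, against 38.3%, and NRF1 in 1 of 30, the promoter of Ppara, against 1.97%. A match describes the letters only. The runs are promoters by annotation alone, and whether these cells use the annotated starts, that of Acsl1 included, was not tested.

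Of 5 tested members of uptake and activation, 3 rose, 0 fell and 2 did not pass (60% called, against 22.0% of all tested genes). The acyl-CoA synthetase Acsl5, found on mitochondria and the endoplasmic reticulum, held 155, 164 and 149.7 CPM in control and 209, 201 and 199 CPM in TGF-beta1 libraries. Acsl3, the synthetase of lipid droplets, held 281, 275 and 279 against 342, 358 and 340.1 CPM. Acsl1, the main synthetase of oxidative tissues, held 33.1, 29.9 and 31.9 against 39.6, 41.8 and 42.2 CPM. For each of these genes every TGF-beta1 library lay above every control library. Acsl5 rose by 29.9% (log2 fold change 0.38, SE 0.04, adjusted p = 5.28e-06), Acsl3 by 24.6% (0.32, SE 0.03, adjusted p = 7.01e-06) and Acsl1 by 30.1% (0.38, SE 0.06, adjusted p = 0.000438). Acsl4, which prefers arachidonic acid, held 153, 156 and 149 against 168, 166 and 164 CPM and did not pass (0.12, adjusted p = 0.126), although it passed where only these 6 libraries were fitted (adjusted p = 0.0215; range over alternatives 0.0215 to 0.289). Fabp3, a fatty acid carrier of muscle, stood at 7 to 13 counts per library, too few for a difference to be seen. The Zdhhc6 gene overlaps Acsl5 in the RefSeq table and strand handling is not given. Zdhhc6 was looked up after the values were seen, and did not pass (71.0 against 67.5 CPM, adjusted p = 0.261). Other counted genes also overlap Acox3 (Trmt44), Acaa1a (Myd88), Ppara (Cdpf1) and Fabp3 (Zcchc17). Their part in the counts of these members was not tested.

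In the carnitine shuttle, the entry enzyme Cpt1a, which controls how fast fatty acids reach the mitochondrial matrix, held 100.1, 96.0 and 111 CPM in control and 79.1, 87.0 and 93.5 CPM in TGF-beta1 libraries. The groups did not overlap, though the highest TGF-beta1 library came close to the lowest control library. Cpt1a fell by 15.5% (log2 fold change -0.24, SE 0.06, adjusted p = 0.00728). Cpt2, which releases the acyl group inside the mitochondrion, held 51.4, 49.1 and 55.9 against 46.1, 45.5 and 47.3 CPM and fell (-0.17, adjusted p = 0.0387). Crat, which moves acetyl groups between carnitine and coenzyme A, rose from 74.4, 64.5 and 67.2 to 78.8, 77.0 and 78.1 CPM (0.18, adjusted p = 0.0197). Both of these calls were lost when single libraries were left out, without a change of direction. Calls over all genes also dropped with 1 library left out, from 3124 to between 2419 and 2555. Cpt2 did not pass without control replicate 1 or 3 or without any of the 3 TGF-beta1 libraries (adjusted p = 0.0619 to 0.177), and Crat when control replicate 2 or 3, or TGF-beta1 library 1 or 3, was left out (adjusted p = 0.0543 to 0.0964).

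Within the mitochondrial spiral of 10 members, 1 rose, 4 fell and 5 did not pass (50% called, against 22.0% of all tested genes). Hadh, the 3-hydroxyacyl-CoA dehydrogenase of shorter chains, held 28.5, 29.4 and 27.1 CPM in control and 21.2, 22.4 and 19.7 CPM in TGF-beta1 libraries, without overlap. It fell by 25.5% (log2 fold change -0.42, SE 0.07, adjusted p = 0.000509). Acaa2, the thiolase that cleaves off acetyl-CoA, held 21.8, 21.6 and 24.4 against 18.1, 17.4 and 17.9 CPM and fell by 21.3% (-0.35, SE 0.08, adjusted p = 0.00498). Echs1, the enoyl-CoA hydratase, held 66.5, 62.5 and 66.0 against 58.6, 54.2 and 55.2 CPM and fell by 13.8% (-0.22, SE 0.05, adjusted p = 0.00447). The hydration, later dehydrogenation and cleavage enzymes of shorter chains were thus each lower in every TGF-beta1 library than in every control library.

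The acyl-CoA dehydrogenases begin each round and differ in the chain length they take. Only Acadvl and Acadsb were called, in opposite directions, and neither call was made under every alternative. Acadvl, for very long chains, held 45.6, 44.7 and 45.0 against 50.7, 50.5 and 48.9 CPM and rose (0.15, adjusted p = 0.0399). Acadsb, for short branched chains, held 42.0, 42.6 and 40.7 against 38.4, 37.5 and 37.8 CPM and fell (-0.14, adjusted p = 0.0475). The Acadsb call was lost under all 11 alternatives tried (adjusted p = 0.05, rounded, to 0.132), and that of Acadvl without any 1 of the 6 libraries (0.0557 to 0.107), without the filter on low counts (0.0699) and with the replicate block (0.0671). Acadm, the medium-chain dehydrogenase, held 47.2, 43.9 and 42.7 against 46.8, 46.5 and 44.2 CPM, with overlap (0.04, 95% interval -0.08 to 0.16). Acadl, for long chains, stood at 118 CPM on average in both groups (95% interval -0.08 to 0.07), and Acads, for short chains, at 46.5 and 44.4 CPM (adjusted p = 0.298). The trifunctional protein, which carries out the last steps on long chains, showed no called change in either chain: Hadha averaged 116 and 111 CPM (adjusted p = 0.239) and Hadhb 146 and 156 CPM (adjusted p = 0.102).

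All 3 auxiliary enzymes for unsaturated chains fell, against 10.2% of all tested genes. Decr1, the 2,4-dienoyl-CoA reductase, held 89.9, 86.8 and 87.0 CPM in control and 64.9, 61.5 and 68.9 CPM in TGF-beta1 libraries, and had the smallest p of all members. It fell by 25.9% (log2 fold change -0.43, SE 0.04, adjusted p = 2.83e-06). The isomerase Eci1 held 27.7, 23.6 and 27.3 against 20.2, 20.3 and 20.8 CPM and fell by 21.9% (-0.36, SE 0.07, adjusted p = 0.00210). Its partner Eci2, found in mitochondria and peroxisomes, held 31.6, 33.5 and 31.7 against 26.9, 26.3 and 26.1 CPM and fell by 18.1% (-0.29, SE 0.06, adjusted p = 0.00352). No TGF-beta1 library of these genes reached a control library.

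Electron transfer genes, which hand electrons from the dehydrogenases to the respiratory chain, showed no called change: Etfa averaged 122 and 119 CPM, Etfb 27.5 and 26.2 CPM and Etfdh 56.8 and 53.2 CPM in control and TGF-beta1 cells (adjusted p = 0.260 to 0.631). Among 5 peroxisomal members, 1 fell (20% called, close to the 22.0% of all tested genes). Hsd17b4, the bifunctional enzyme of branched and very long chains, held 87.3, 86.8 and 90.0 against 73.9, 79.1 and 79.3 CPM and fell by 12% (log2 fold change -0.18, SE 0.04, adjusted p = 0.00470). Acox3, an oxidase of branched chains, averaged 43.9 CPM in both groups, Crot, which exports shortened chains, 47.6 and 47.1 CPM, and the thiolase Acaa1a 63.0 and 63.9 CPM. Reads of Acaa1a may be shared with its close copy Acaa1b, which averaged 0.365 to 1.07 CPM per group. Ehhadh, the other bifunctional enzyme and a common PPAR alpha target, held 6 to 21 counts per library over the 12 libraries. Its level was 0.256, 0.350 and 0.504 CPM in control and 0.403, 0.169 and 0.577 CPM in TGF-beta1 libraries, with overlap, and its interval (-1.07 to 1.17) means that a difference of that size was not detectable at this depth.

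Among the regulators, Pdk4 had the largest change of any member. It encodes a kinase that holds back pyruvate dehydrogenase and so favours fat over glucose as fuel, and PPAR receptors are known to induce it. Pdk4 held 12.5, 8.81 and 11.3 CPM in control and 5.89, 4.89 and 6.82 CPM in TGF-beta1 libraries, without overlap. It fell by 45.9% (log2 fold change -0.89, SE 0.14, adjusted p = 0.000299). Ppara, the receptor PPAR alpha, was low and imprecise, at 1.45, 1.84 and 1.26 CPM against 0.920, 1.60 and 1.18 CPM, with overlap (-0.29, 95% interval -0.97 to 0.39). Ppard, the receptor PPAR delta, averaged 34.1 and 36.9 CPM and did not pass (adjusted p = 0.207). Ppargc1a, a coactivator of mitochondrial genes, held 0 counts in all 12 libraries, which allows up to 0.0916 CPM in a library.

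**Figure D2:**
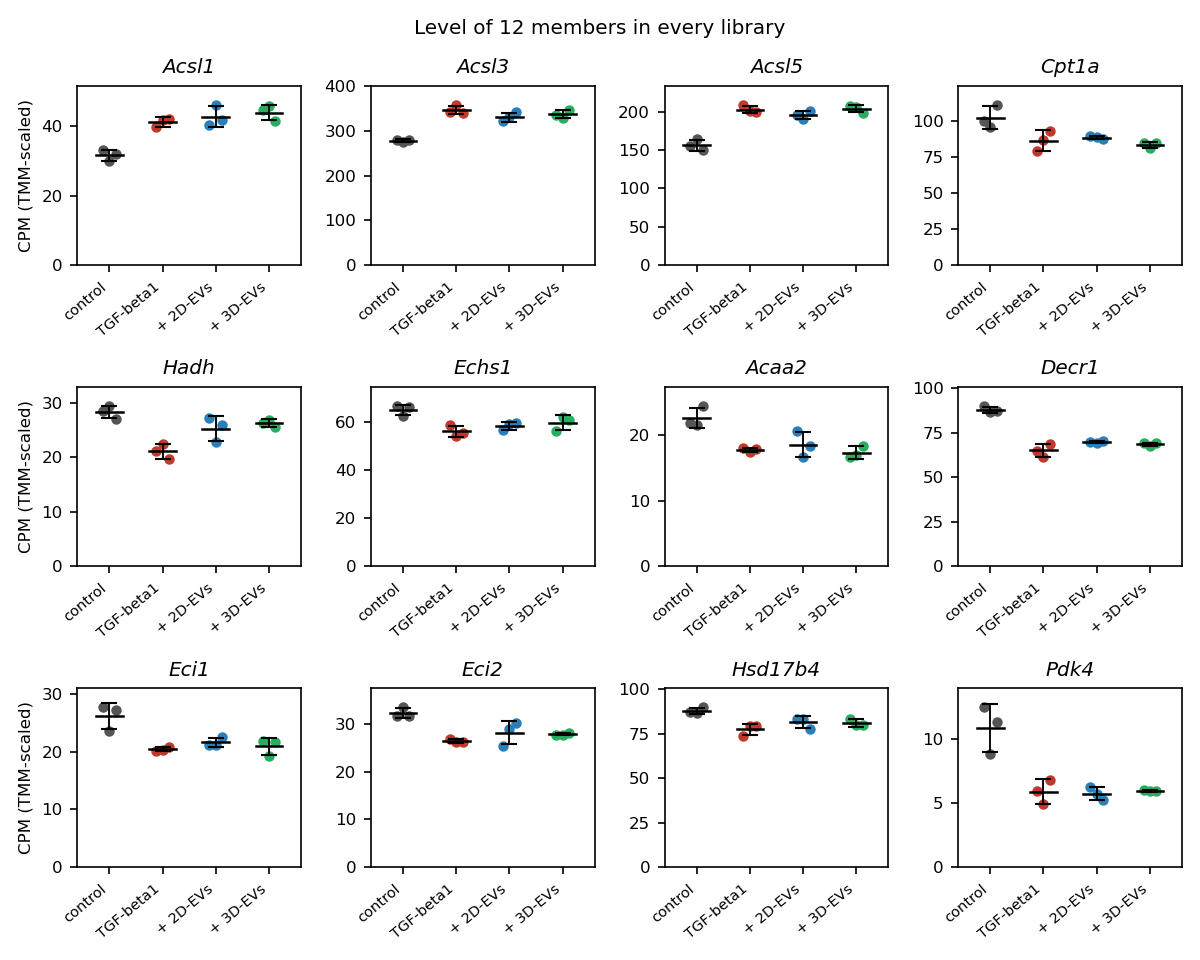
CPM in every library (points) of the 12 members called in TGF-beta1 against control cells under the main analysis and each of 11 alternatives; horizontal bars are group means and whiskers the SD (n = 3), and each axis starts at 0. The libraries with 2D-EVs and 3D-EVs lie near those with TGF-beta1 alone for most genes, and Hadh lies between control and TGF-beta1 cells.

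Of the 16 calls, 12 were made under every one of 11 alternatives (Acsl1, Acsl3, Acsl5, Cpt1a, Hadh, Echs1, Acaa2, Decr1, Eci1, Eci2, Hsd17b4 and Pdk4), and Acadsb, Acadvl, Cpt2 and Crat were not. Replicates are few, so a member without a call may still have changed by an amount inside its interval.

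A wider list of 85 other genes of fatty acid handling gave 66 tested genes, of which 7 rose, 13 fell and 46 did not pass (30.3% called, against 22.0% of all tested genes, of which 11.8% rose and 10.2% fell), with a median log2 fold change of -0.08. Scp2, the sterol carrier protein that also holds a peroxisomal thiolase, fell by 22.5% (148 against 191 CPM, adjusted p = 2.43e-05). Ech1, the dienoyl-CoA isomerase that works beside Decr1 on unsaturated chains, fell by 17.7% (53.1 against 64.5 CPM, adjusted p = 7.73e-05). Txnip, a brake on glucose uptake, fell by 56.9% (23.2 against 53.8 CPM, adjusted p = 0.000141). Bdh1, which interconverts the ketone bodies, rose by 38.2% (55.0 against 39.8 CPM, adjusted p = 5.32e-05). The fatty acid transporter Slc27a4 rose too (57.0 against 46.9 CPM, adjusted p = 0.00534), and so did the phosphatidate phosphatase Lpin1 (26.2 against 22.0 CPM, adjusted p = 0.00307). Pparg and Ppargc1b averaged under 1 CPM in each group, and Cyp4a1, Cyp4a2 and Cyp4a3, known PPAR alpha targets, held 0 counts in every library.

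Of 30 mitochondrial genes outside fatty acid oxidation, 4 rose, 3 fell and 23 did not pass, with a median of 0.04. The 23.3% called were close to the 22.0% of all tested genes. Pdha1, a subunit of pyruvate dehydrogenase, fell (399 against 461 CPM, adjusted p = 0.000153) and Slc25a5, an ADP/ATP carrier, rose (234 against 203 CPM, adjusted p = 0.00721). None of 13 mitochondrially encoded genes passed in TGF-beta1 against control cells, and 0 passed in 2D-EV against control cells. In 3D-EV against control cells 2 of 13 rose (15.4%, against 23.0% of all tested genes). Their summed level was 55774 to 56802 CPM in 3D-EV and 53020 to 54398 CPM in control cells. The share of these 13 genes in all counts was 5.31 to 5.58% over the 12 libraries.

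The vesicle comparisons asked whether 2D-EVs or 3D-EVs moved the pathway in cells given TGF-beta1. No member was called. In 2D-EV against TGF-beta1 cells edgeR called 0 of 32 members, DESeq2 likewise 0, and an unadjusted p under 0.05 was found for 3 (Hadh, Decr1 and Acadm), where 7.10% of all genes had one. Across all genes, 0.0282% were called. In 3D-EV against TGF-beta1 cells edgeR and DESeq2 called 0 of 32 members, 2 (Hadh and Cpt2) had an unadjusted p under 0.05 against 7.24% of all genes, and 0% of all genes were called by edgeR. The median log2 fold change of the members was 0.03 with either preparation and close to 0 over all genes (0.001 with 2D-EVs and -0.0002 with 3D-EVs). Both comparisons share the 3 TGF-beta1 libraries, also with the cytokine comparison, so that a chance deviation in them would shift all of these values.

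Hadh had the smallest p of any member in both comparisons. Its level was 27.2, 22.8 and 25.9 CPM with 2D-EVs and 26.4, 26.9 and 25.5 CPM with 3D-EVs, against 21.2, 22.4 and 19.7 CPM with TGF-beta1 alone and 28.5, 29.4 and 27.1 CPM in control cells. Every vesicle library lay above every library of TGF-beta1 alone, and the 3D-EV libraries lay below all control libraries. Libraries did not overlap those of TGF-beta1 alone for 6 of 32 members with 2D-EVs, against 12.4% of all genes. With 3D-EVs this held for 7 members, with Acadvl lower, against 13.6% of all genes. The log2 fold change of Hadh against TGF-beta1 alone was 0.26 with 2D-EVs (95% interval 0.11 to 0.41, adjusted p = 0.345, range over alternatives 0.158 to 0.684) and 0.32 with 3D-EVs (0.16 to 0.47, adjusted p = 0.442, range 0.0633 to 0.850). Neither passed once all genes were taken into account. Cpt2 held 53.1, 48.4 and 47.5 CPM with 2D-EVs and 51.3, 52.5 and 55.1 CPM with 3D-EVs, each above the 45.5 to 47.3 CPM of TGF-beta1 alone (0.10, adjusted p = 0.777, and 0.19, adjusted p = 0.511).

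The genes with the firmest response to TGF-beta1 stayed near their TGF-beta1 levels. Acsl3 held 321, 331 and 341 CPM with 2D-EVs and 337, 330.1 and 348 CPM with 3D-EVs, and its intervals against TGF-beta1 alone were -0.14 to 0.005 and -0.11 to 0.03 (log2). Acsl5 held 195, 190.3 and 201 CPM and 208, 206 and 198 CPM (-0.13 to 0.03 and -0.07 to 0.09), and Acsl1 40.2, 46.0 and 41.7 CPM and 44.6, 45.7 and 41.4 CPM. These values overlapped those of TGF-beta1 alone in each case. Decr1 held 70.0, 69.3 and 70.3 CPM with 2D-EVs, all just above the highest TGF-beta1 library (68.9 CPM), and 69.1, 67.7 and 69.1 CPM with 3D-EVs (0.10, adjusted p = 0.601, and 0.08, adjusted p = 0.707). Pdk4 held 6.27, 5.66 and 5.25 CPM and 5.99, 5.89 and 5.89 CPM, inside the range of TGF-beta1 alone (intervals -0.34 to 0.27 and -0.29 to 0.32). Cpt1a held 89.6, 88.8 and 87.5 CPM and 84.8, 81.2 and 84.7 CPM, also inside that range. Acadm held 53.9, 47.9 and 48.6 CPM and 47.2, 45.3 and 49.0 CPM, and only the 2D-EV libraries were all above those of TGF-beta1 alone (0.13, adjusted p = 0.656). Ppara stayed widely spread, at 1.98, 1.59 and 0.793 CPM and 1.43, 1.40 and 1.88 CPM.

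**Figure D3:**
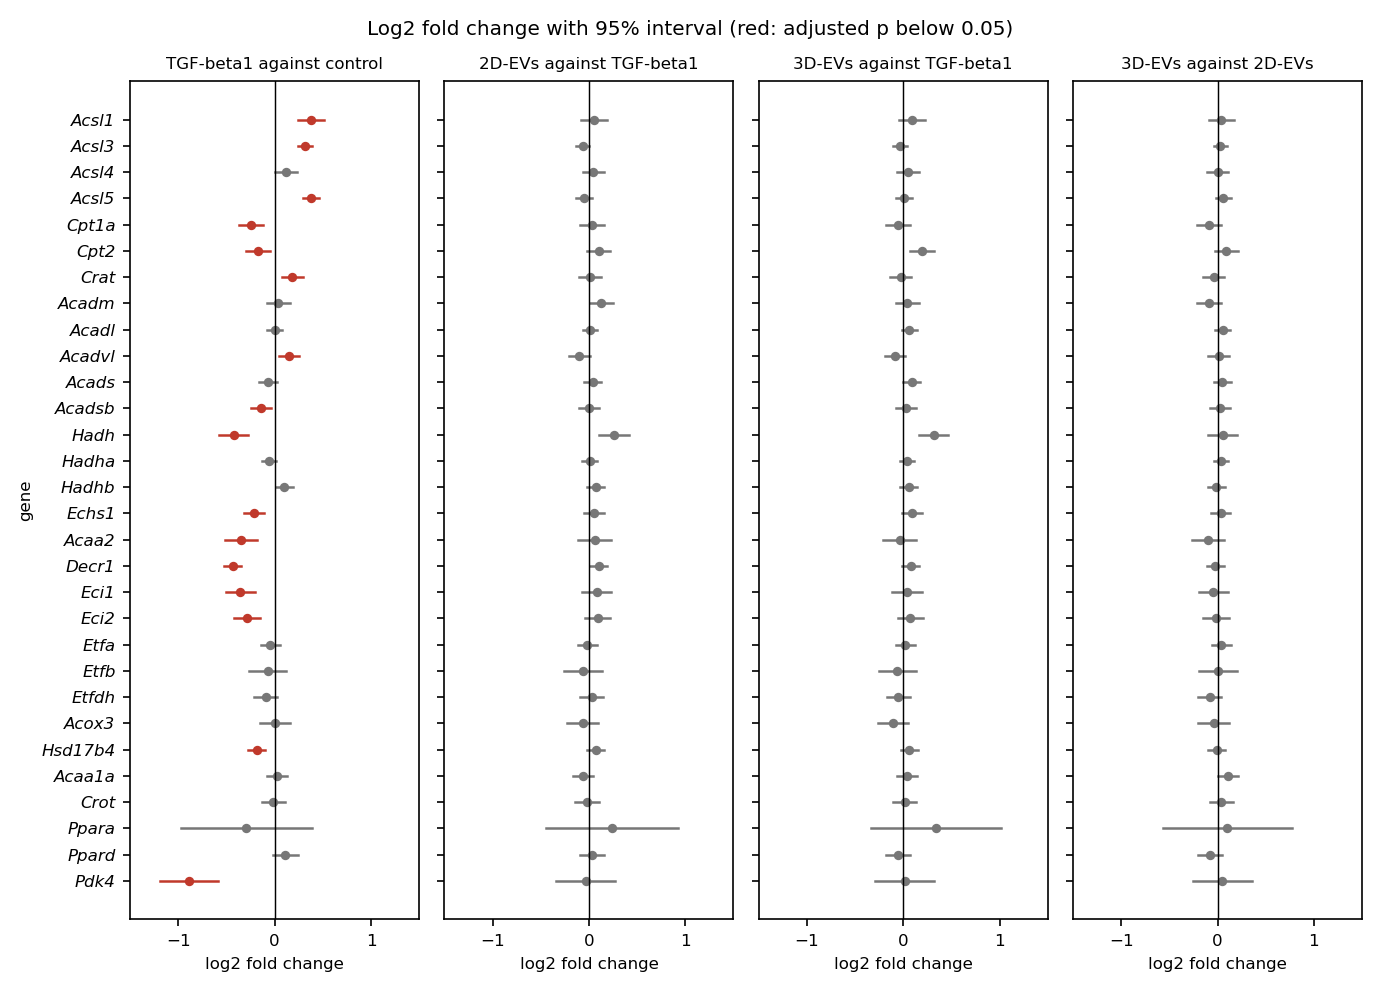
Log2 fold change (points) and 95% interval (lines, not adjusted for the number of genes) of 30 members in 4 comparisons, in red where the adjusted p is below 0.05. The 16 red genes are all in TGF-beta1 against control cells, and the intervals of Hadh lie above 0 in both comparisons of vesicles with TGF-beta1 without passing the adjusted test.

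The preparations were also compared with each other. In 3D-EV against 2D-EV cells edgeR and DESeq2 called 0 of 32 members, 1 member (Acaa1a, named after its values were seen) had an unadjusted p under 0.05, where 6.90% of all genes had one, and 0.00705% of all genes were called. The median of the members was 0.006 (log2). For Hadh the difference was 0.05 (95% interval -0.10 to 0.21), for Cpt2 0.09 (-0.03 to 0.21), for Cpt1a -0.08 (-0.21 to 0.04), for Acsl3 0.03 (-0.04 to 0.10) and for Decr1 -0.03 (-0.11 to 0.06). These intervals bound the differences but do not show that the preparations act alike. Pdk4 was less precise (0.05, -0.26 to 0.36).

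Vesicle-treated cells were then set against control cells, to see which members stood apart from untreated cells after the whole treatment. In 2D-EV cells 6 of 32 members were higher and 7 lower, against 18.6% of all genes called (10.5% higher and 8.13% lower). In 3D-EV cells the counts were also 6 and 7, against 23.0% of all genes (12.2% and 10.8%). These comparisons share the control libraries with each other and with the cytokine comparison, so their values are given side by side. Acsl5 was 25.2% above control with 2D-EVs and 30.7% with 3D-EVs (adjusted p = 3.05e-05 and 4.28e-06), Acsl3 19.1% and 21.6% (8.58e-05 and 2.38e-05) and Acsl1 34.8% and 38.7% (0.000206 and 7.29e-05). On the lower side, Pdk4 was at log2 fold changes of -0.92 and -0.87 (adjusted p = 0.000299 and 0.000350), Decr1 at -0.33 and -0.36 (4.96e-05 and 2.06e-05), Eci1 at -0.28 and -0.32 (0.0132 and 0.00455), Acaa2 at -0.29 and -0.38 (0.0185 and 0.00246) and Cpt1a at -0.21 and -0.29 (0.0206 and 0.00200).

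Of the 66 other fatty acid genes tested, 9 were higher and 10 lower than control with 2D-EVs (28.8% called, against 18.6% of all tested genes). With 3D-EVs, 8 were higher and 14 lower (33.3%, against 23.0%). None was called by edgeR in the comparisons among cells given TGF-beta1. There an unadjusted p under 0.05 was found for 6 with 2D-EVs, 8 with 3D-EVs and 3 between them. The shares over all genes were 7.10%, 7.24% and 6.90%. With 2D-EVs, Bdh1 (adjusted p = 0.000214) and Lpin1 (adjusted p = 0.00286) were among those that were higher. Txnip (0.000624), Acat1, a mitochondrial thiolase that also acts on ketone bodies (97.2 against 118 CPM, 0.000366), and Acad10 (0.00208) were among those that were lower. With 3D-EVs, Bdh1 (0.000594), the lipid droplet coat Plin2 (107 against 96.8 CPM, 0.00468) and Slc27a4 (0.00470) were higher, and Scp2 (0.000271) and Txnip (0.000470) were lower. Of the 30 mitochondrial reference genes, 5 were higher and 3 lower with 2D-EVs (26.7% called, against 18.6% of all tested genes). With 3D-EVs, 6 were higher and 3 lower (30%, against 23.0%).

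Hadh did not pass against control in either vesicle group, at -0.16 with 2D-EVs (adjusted p = 0.136) and -0.11 with 3D-EVs (adjusted p = 0.311). Hadhb, the thiolase chain of the trifunctional protein, was called higher than control with both preparations: its libraries held 156, 164 and 171 CPM with 2D-EVs and 167, 167 and 153 CPM with 3D-EVs, against 146, 149 and 142 CPM in control cells (0.17 and 0.16, adjusted p = 0.00966 and 0.0133). Acsl4 was called higher as well (0.17 with either, adjusted p = 0.0395 and 0.0323), and so was Crat (0.19 and 0.15, adjusted p = 0.0169 and 0.0437), although its 3D-EV libraries overlapped those of control. Eci2 was lower with both (-0.20 and -0.21, adjusted p = 0.0368 and 0.0218), Echs1 was called lower only with 2D-EVs (-0.16 and -0.13, adjusted p = 0.0313 and 0.0708) and Hsd17b4 only with 3D-EVs (-0.11 and -0.12, adjusted p = 0.0735 and 0.0483). The direct difference between 3D-EV and 2D-EV cells was not called for either of the last 2 genes.

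Several of these calls were lost when 1 library was left out or a setting was changed. Calls over all genes against control also dropped with 1 library left out. They went from 2642 to between 2006 and 2311 in 2D-EV cells, and from 3262 to between 2408 and 2679 in 3D-EV cells. In 2D-EV against control cells, 6 of 13 calls were made under every alternative (Acsl1, Acsl3, Acsl5, Decr1, Hadhb and Pdk4), and the number of members called dropped from 13 to 6 without control replicate 3 and to 8 without 2D-EV replicate 2, where Acadm was gained. Without control replicate 3 the adjusted p was 0.0977 for Acaa2, 0.108 for Cpt1a, 0.0666 for Crat, 0.0933 for Echs1, 0.0607 for Eci1, 0.0674 for Eci2 and 0.130 for Acsl4. Without 2D-EV replicate 2 it was 0.0917 for Acaa2, 0.0556 for Cpt1a, 0.0642 for Crat, 0.0609 for Echs1, 0.0519 for Eci1 and 0.0585 for Eci2, and that of Acadm fell below the threshold (0.0466). Without 2D-EV replicate 3 it was 0.153 for Acsl4, 0.0585 for Acaa2 and 0.0632 for Cpt1a, and without 2D-EV replicate 1 0.110 for Echs1 and 0.154 for Eci2. Without control replicate 1 Acsl4 (0.0918), Echs1 (0.111), Eci1 (0.0656) and Eci2 (0.0642) were lost, and without control replicate 2 Acsl4 (0.0629), Crat (0.0884) and Eci2 (0.129). With all libraries kept, calls were also lost in the fit of the 2 groups alone (Acsl4 0.0845, Eci2 0.0846) and with the replicate block (Acsl4 0.0659, Echs1 0.0559, Eci2 0.0511). Acadm, at 0.17 against control with 2D-EVs, missed the threshold in the main analysis (adjusted p = 0.0521) and passed under 4 of 11 alternatives, also with DESeq2 (0.0349), with the replicate block (0.0497) and without control replicate 1 (0.0330). In 3D-EV against control cells, 8 of 13 calls were made under every alternative (Acsl1, Acsl3, Acsl5, Acaa2, Cpt1a, Decr1, Eci1 and Pdk4). There the call of Hadhb was lost without control replicate 3 or 3D-EV replicate 1 or 2 (0.0590 to 0.0634), that of Eci2 without control replicate 2 or 3D-EV replicate 1 or 2 (0.0613 to 0.0846), and that of Crat without control replicate 2 or 3 or 3D-EV replicate 1 or 3 (0.0955 to 0.184). That of Acsl4 was lost without any 1 of the 6 libraries (0.0516 to 0.108), and that of Hsd17b4 without any control library or 3D-EV replicate 2 or 3 (0.0786 to 0.153). With all libraries kept, Hsd17b4 was also lost with RLE factors (0.0533), DESeq2 (0.0535), no filter on low counts (0.0642) and the replicate block (0.0800), Crat in the fit of the 2 groups alone (0.0914) and with the block (0.0519), and Acsl4 with the block (0.0520).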

How the data were processed

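Per the submitters' processing notes, the authors worked on build mRatBN7.2 and used DESeq2, StringTie, HISAT2 and fastp; their versions, annotation, strand handling and counting settings were not stated there. What the authors deposited are whole-number counts per gene, not normalized, for 24660 genes in 12 libraries (32888125 to 39754319 counts each). The 12 tables per library were identical to the joint table, with 0 further sample columns. Among its cells 5687 hold a 2 and only 1514 a 1, an unusual pattern for plain read counting, and limits at 0 counts cover counting error only.

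The test was the quasi-likelihood test of edgeR 4.0.16, run under R 4.3.3 (filterByExpr with a minimum count of 10, TMM factors, a single quasi-likelihood fit of 4 group means). In all, 14184 genes were tested in each of 6 contrasts. Benjamini-Hochberg adjustment was made over all tested genes within each contrast separately, with a threshold of 0.05. A gene is called when it passes. SE was the log2 fold change divided by the root of F. The steps were tested on simulated data. Alternatives were RLE factors, DESeq2 1.42.0, no filter, only the 2 groups compared, a replicate block and each library left out. Same-numbered libraries of different groups were checked for pairing (18 pairs, r from -0.067 to 0.0448) and were not paired; library pairs within a group differed by 6.04 to 9.33 times the counting variance. Members and lists were chosen with earlier results of these data known. Named with values in all libraries were members called in any contrast plus Cpt1a, Acadm, Ppara, Ppargc1a and Ehhadh (Cd36 was not analysed here); of the wider list, up to 3 called genes per direction and comparison with the smallest p, and of the mitochondrial list at most 2. Some genes that this rule names are not reported here. Symbols were matched to RefSeq tables (GRCr8), used for names, overlaps and promoters.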

Additional observations from a re-analysis of the deposited data

How the results depend on the processing

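Each result was recomputed under 11 alternatives. For single members, 1295 of 1386 values kept their side of the threshold, 86 lost the call and 5 gained it. Of the 1295, 1237 also kept their direction and 58, none of them called, changed sign; 0 called values did. Members called in TGF-beta1 against control cells numbered 16, and 12 to 16 over the alternatives. With 1 library left out they numbered 12 to 13, and 9 to 11 in 3D-EV against control cells (13 with all libraries). In 2D-EV against control cells they numbered 13, and 6 to 11 with 1 library left out. Calls over all genes dropped too with 1 library left out. They numbered 2419 to 2555 in TGF-beta1 against control cells (3124 with all libraries). The numbers were 2006 to 2311 in 2D-EV (2642) and 2408 to 2679 in 3D-EV cells (3262) against control. The 3 comparisons among cells given TGF-beta1 had 0 members called under every alternative. Over all genes, edgeR called 4 in 2D-EV against TGF-beta1 cells, DESeq2 56, edgeR without a filter 14 and on the 2 groups alone 7, and 1 to 3 with 1 library left out. In 3D-EV against 2D-EV cells edgeR called 1, DESeq2 21, edgeR without a filter 8, on the 2 groups alone 2 and with the replicate block 2, and 1 to 3 with 1 library left out. In 3D-EV against TGF-beta1 cells edgeR called 0 and DESeq2 13, and 0 to 2 with 1 library left out. The cause was not tested. With the replicate block, called members numbered 14, 11 and 10 in TGF-beta1, 2D-EV and 3D-EV cells against control. Depth limits Fabp3, Ehhadh and Ppara.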
